A study of Mus musculus with 6 samples.

Results

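Malat1 and Neat1 are neighbouring long noncoding RNA genes whose transcripts stay in the nucleus. They were taken by symbol from the count tables, as 2 of 27998 genes. They had been chosen by their measured levels in these same libraries, so that the levels and ratios given here are descriptions without a test. Between E16.5 and P5 the RNAs went opposite ways in these libraries. Malat1 was highest in E16.5-4n cardiomyocytes (CMs), where it held 1.95% of all counts and ranked 1 among all genes, and lowest in P5-4n CMs, where it held 0.280%. Neat1 was lowest in E16.5-2n CMs, with 3.83 of every 1000000 counts, and highest in P5-2n CMs, with 25.2.

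The libraries came from the left ventricle of C57BL/6J mice at embryonic day 16.5 (E16.5) and at postnatal days 1 and 5 (P1 and P5). Dissociated cells were fixed in methanol, stained for the CM marker MYH1 and for DNA with Hoechst, and sorted into diploid (2n) and tetraploid (4n) CMs, so that 4n-CMs include cells in G2/M as well as cells with 2 nuclei. No animal carried a transgene or received a treatment according to the labels. Each of the 6 libraries, named by age and DNA content as in E16.5-2n, was the only library of its condition and pooled cells of 3 sorts. Neither age nor DNA content can thus be told apart from differences between libraries, and no p-value was computed.

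In droplet-based 3′ scRNA-seq, each captured RNA carries a unique molecular identifier (UMI), and the UMIs of a gene count its captured molecules. CMs were cells with at least 1 UMI of each of Tnni3, Tnnt2, Tnnc1 and Actc1, which kept 97.8% to 99.4% of the cells of a library, or 3654 to 7340 CMs with 13070343 to 19665830 UMIs in sum. All 8 CM markers checked had UMIs in every library, together 31122 to 38253 UMIs per 1000000 UMIs (CPM). The 4 filter genes were among these 8, so that their presence was fixed by the filter. The 27 markers of fibroblasts, endothelial, immune, mural and epicardial cells also had UMIs in every library, except Ptprc, which was at 0 in E16.5-2n. CMs with at least 5 UMIs of these markers made up 1.93%, 1.92% and 4.92% of 2n-CMs from the youngest to the oldest age, and 16.2%, 27.7% and 10.4% of 4n-CMs. UMIs of 6 erythroid genes, which CMs should lack, were found in 76.1% (P1-2n) to 96.7% (E16.5-4n) of CMs, at median depths of 1831 and 2185 UMIs per CM. Their summed level was highest at E16.5, with 5127, 1896 and 2242 CPM in 2n-CMs and 10332, 2906 and 1649 CPM in 4n-CMs by age. Of 30652 distinct cell barcodes, 499 (1.63%) occurred in more than 1 library.

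Malat1 collects in nuclear speckles, bodies rich in splicing factors, and is among the most abundant noncoding RNAs of mammalian cells. Neat1 is made as a short, polyadenylated isoform and as a long isoform that is the scaffold of paraspeckles, nuclear bodies that hold RNA-binding proteins. Mature Malat1 and long Neat1 have no poly(A) tail: RNase P cuts them ahead of a tRNA-like RNA, and the new end is protected by a triple helix of U-rich stretches and an A-rich tract. Libraries of this kind are primed on A-rich RNA, and a UMI does not tell which Neat1 isoform it came from.

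Both genes lie on the minus strand of chromosome 19 and are annotated as lincRNAs in GENCODE for GRCm38. Malat1 (ENSMUSG00000092341) spans chr19:5795690-5802672, and its main transcript is 1 exon of 6983 bases. Neat1 (ENSMUSG00000092274) spans chr19:5824708-5845478, 22035 bases away from Malat1, with a long isoform of 1 exon and 20771 bases and a short isoform of 2 exons and 3004 bases. The 3′ regions are shown because the libraries were primed on A-rich RNA. They are the stretch around the cut of Malat1 (chr19:5795917-5796076), the last bases of long Neat1 (chr19:5824708-5824817) and the last bases of short Neat1 (chr19:5842307-5842416), all from exons and written 5′ to 3′ on the minus strand of GRCm38. In the first pair, capitals mark TTTCTTTTCCTGA, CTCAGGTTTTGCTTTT and AAAAAGCAAAA, the 3 runs of at least 11 bases that the last 400 bases of both transcripts share, and in the last the poly(A) signal AATAAA.
Malat1: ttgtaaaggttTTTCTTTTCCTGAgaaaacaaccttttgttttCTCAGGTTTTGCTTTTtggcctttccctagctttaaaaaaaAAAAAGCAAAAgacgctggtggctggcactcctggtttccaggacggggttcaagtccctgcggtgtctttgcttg
Neat1 long isoform: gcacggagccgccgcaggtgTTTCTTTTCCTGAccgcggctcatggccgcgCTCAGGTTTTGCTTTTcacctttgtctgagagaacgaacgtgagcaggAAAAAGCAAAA
Neat1 short isoform: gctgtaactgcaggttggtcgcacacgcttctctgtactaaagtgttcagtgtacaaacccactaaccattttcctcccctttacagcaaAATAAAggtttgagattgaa

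Long Neat1 ends at its A-rich tract, whereas annotated Malat1 runs on for 227 bases beyond the printed stretch. The 3 runs follow each other in the same order, at positions 12, 44 and 85 of the printed Malat1 stretch and 21, 52 and 100 of the printed Neat1 stretch, counted from 1 at its 5′ end, and none overlaps another. Searched on the transcript strand in the last 400 bases of 8047 lincRNA transcripts of at least that length, TTTCTTTTCCTGA and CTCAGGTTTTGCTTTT were each found in 2 (0.0249%), the main Malat1 transcript and long Neat1. AAAAAGCAAAA was found in 11 (0.137%) and AATAAA in 3296 (41.0%). The runs were defined by the pair, so that their presence in both is no finding. The A-rich tract of Malat1 contains the only run of at least 8 A in its main transcript, 12 bases long, and the longest run in long Neat1 was 7 bases. A match of letters is a description of the annotated transcript, and which tract primed a UMI was not tested.

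From the youngest to the oldest age, Malat1 gave 202074, 132702 and 63917 UMIs in the 2n libraries and 254728, 140188 and 51453 UMIs in the 4n libraries. Divided by all UMIs of the CMs, these were 13818 CPM (95% interval 13758 to 13877) in the 2n and 19489 CPM (19414 to 19564) in the 4n library of E16.5. The corresponding pair was 8069 CPM (8026 to 8113) and 7129 CPM (7091 to 7166) for P1, and 3566 CPM (3538 to 3594) and 2796 CPM (2772 to 2820) for P5. None of the 6 intervals touched another, and all of them cover counting error only. Levels spanned 6.97-fold and were ordered by age whichever DNA content was taken, with the 4n library above the 2n library at E16.5 only. In other words, 1 in 51.3 UMIs of an E16.5-4n CM was Malat1, against 1 in 358 UMIs of a P5-4n CM.

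The rank of Malat1 among all genes by UMIs was 3 (2n) and 1 (4n) for E16.5, 17 in both P1 libraries, and 35 (2n) and 50 (4n) for P5. Over all CMs it had 845062 UMIs and ranked 11, after 6 mitochondrially encoded genes of the respiratory chain and ATP synthase (mt-Co3, mt-Atp6, mt-Co1, mt-Nd1, mt-Co2 and mt-Cytb) and the sarcomere genes Myl2, Myl3, Actc1 and Tpm1.

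**Figure D1:**
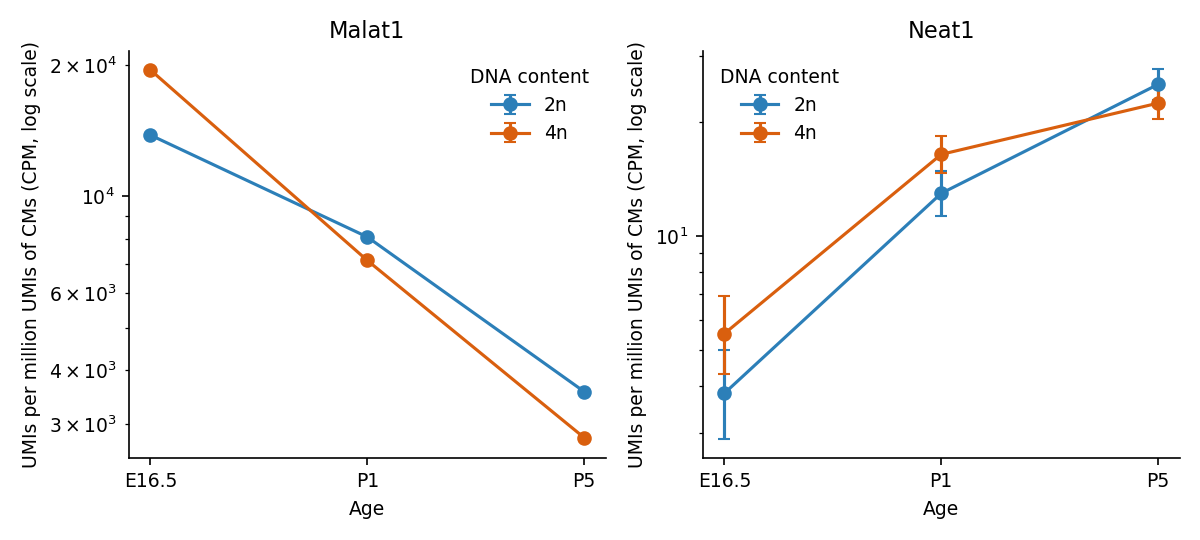
Malat1 (left) and Neat1 (right) in CMs by age (horizontal axis) and DNA content (colour), in CPM on a log axis. Points are single libraries and bars are 95% counting intervals, smaller than the points for Malat1, which is lower at each later age, while Neat1 goes from 3.83 and 5.51 CPM at E16.5 to 25.2 and 22.4 CPM at P5.

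Neat1 was sparse in all libraries, with 1528 UMIs over 30733 CMs. At E16.5 it gave 56 UMIs in the 2n library (3.83 CPM, 2.89 to 4.97) and 72 in the 4n library (5.51 CPM, 4.31 to 6.94). At P1 it gave 213 UMIs in 2n (13.0 CPM, 11.3 to 14.8) and 323 in 4n (16.4 CPM, 14.7 to 18.3), and at P5 451 in 2n (25.2 CPM, 22.9 to 27.6) and 413 in 4n (22.4 CPM, 20.3 to 24.7). The levels followed the ages from low to high, with 4n above 2n except at P5. The intervals of the 2n and 4n libraries overlapped within each age, whereas the intervals of different ages did not. Its rank among genes went from 9251 through 5296 to 3325 with age in 2n-CMs and from 8793 through 4865 to 3664 in 4n-CMs.

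Because both RNAs were counted in the same cells, their quotient does not depend on the total used for scaling. Per 1000 UMIs of Malat1 there were 0.277 UMIs of Neat1 (0.209 to 0.360) in 2n- and 0.283 (0.221 to 0.356) in 4n-CMs of E16.5. This quotient was 1.61 (1.40 to 1.84) and 2.30 (2.06 to 2.57) for the P1 pair, and 7.06 (6.42 to 7.74) and 8.03 (7.27 to 8.84) for the P5 pair. The 2n and 4n libraries overlapped at E16.5 and at P5 but not at P1. It is a quotient of UMIs and not of molecules, since the 3′ ends differ.

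The age comparisons ask how CMs change around the loss of proliferation after birth. In 2n-CMs, Malat1 was lower at P1 than at E16.5 by a log2 ratio of -0.78 (-0.79 to -0.77) and lower at P5 than at P1 by -1.18 (-1.19 to -1.16). In 4n-CMs the log2 ratios were -1.45 (-1.46 to -1.44) and -1.35 (-1.36 to -1.34). Among 9230 to 9958 genes with at least 100 UMIs over both libraries, 12.1% were at least 2-fold lower at P1 than at E16.5 in 2n-CMs, where Malat1 was not, and 11.6% in 4n-CMs, where it was. From P1 to P5, 1.98% of genes in 2n-CMs and 5.85% in 4n-CMs were at least 2-fold lower, Malat1 among them in both. The medians of these genes were below 0 as well. From E16.5 to P1 they were -0.34 in 2n and -0.30 in 4n, and from P1 to P5 -0.094 and -0.16. Ratios lower than that of Malat1 were found for 20.4% (2n) and 5.01% (4n) of genes from E16.5 to P1. From P1 to P5 these shares were 1.16% and 2.63%.

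Neat1 was 3.38-fold higher at P1 than at E16.5 in 2n-CMs, a log2 ratio of 1.76 (1.33 to 2.21), and 2.98-fold higher in 4n-CMs, a log2 ratio of 1.58 (1.20 to 1.97). At least 2-fold higher in these comparisons were 1.98% and 2.88% of genes. From P1 to P5 the log2 ratios were 0.96 (0.72 to 1.20) in 2n-CMs and 0.45 (0.24 to 0.67) in 4n-CMs, both under 2-fold, where 3.02% and 2.40% of genes were at least 2-fold higher. The value in 2n lay near this limit and was past it, at 1.00 to 1.16, under 6 of 10 alternative settings. The 4n values moved in some settings that limit depth, and the cause was not tested. With each CM thinned to 1000 UMIs, the log2 ratio was 0.94 (0.28 to 1.62) for P1-4n against E16.5-4n. For P5-4n against P1-4n it was 0.59 (0.06 to 1.12), inside the interval at full depth. Among CMs with 2000 to 4000 UMIs, a range chosen after the data were seen, the log2 ratio was 0.77 (0.15 to 1.41) for P1-4n against E16.5-4n and 1.15 (0.66 to 1.64) for P5-4n against P1-4n.

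Over the whole span, Malat1 was 3.87-fold lower at P5 than at E16.5 in 2n-CMs (log2 -1.95, -1.97 to -1.94) and 6.97-fold lower in 4n-CMs (log2 -2.80, -2.81 to -2.79), where 16.8% and 21.0% of genes were at least 2-fold lower. Neat1 was 6.57-fold higher in 2n-CMs (log2 2.72, 2.31 to 3.14) and 4.07-fold higher in 4n-CMs (log2 2.03, 1.66 to 2.41), where 3.03% and 2.48% of genes were at least 2-fold higher. The median of all genes was itself below 0 on this scale, at -0.45 in 2n and -0.51 in 4n, so that relative to it Malat1 lay at -1.50 and -2.29 and Neat1 at 3.17 and 2.53. Of 9314 genes with ratios in both DNA contents, 46 had lower ratios than Malat1 in both and 26 had higher ratios than Neat1 in both. The share of UMIs from mitochondrial genes moved with age as well, from 8.28% and 8.16% at E16.5 to 17.7% and 18.0% at P5. Leaving those genes out of the total moved the log2 ratios of P5 to E16.5 by 0.157 in 2n and 0.164 in 4n. A part of this share in the result beyond the total was not tested. With those genes left out of the total, Malat1 was still lower in each later library of the same DNA content.

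**Figure D2:**
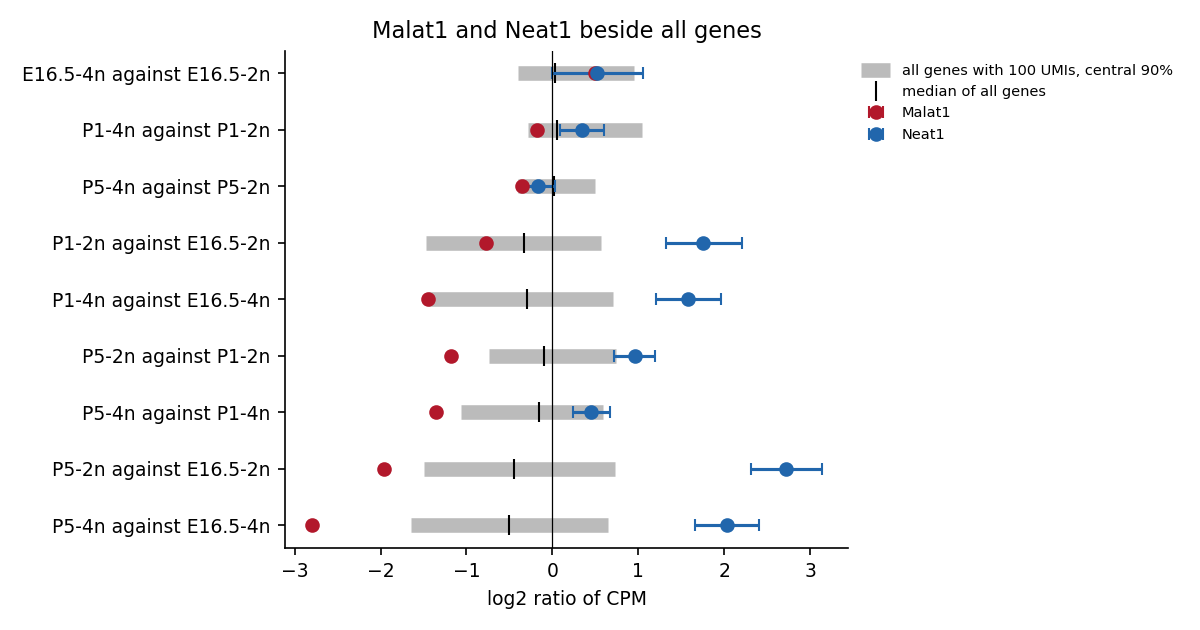
Log2 ratio of CPM (horizontal axis) of Malat1 and Neat1 in each comparison of libraries, with 95% counting intervals, over the range of all genes with at least 100 UMIs (grey, from the 5th to the 95th percentile, with the median as a tick). In P5 against E16.5 both RNAs lie outside the grey range, at -1.95 and -2.80 for Malat1 and at 2.72 and 2.03 for Neat1.

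The comparisons of 4n- with 2n-CMs ask what sets tetraploid cells apart at each age. Malat1 was 1.41-fold higher in 4n than in 2n at E16.5 (log2 0.50, 0.49 to 0.50), 1.13-fold lower at P1 (log2 -0.18, -0.19 to -0.17) and 1.28-fold lower at P5 (log2 -0.35, -0.37 to -0.33). None of these was 2-fold, the size reached by 4.64% (higher) and 0.0208% (lower) of genes at E16.5, 5.23% and 0% of genes for P1, and 1.87% and 0.406% for P5. CMs with markers of other cell types, more frequent in 4n, had more Malat1 in every library. Without them Malat1 was at 13676, 8000 and 3442 CPM in 2n-CMs and 18732, 6482 and 2576 CPM in 4n-CMs with rising age, and the 3 log2 ratios of 4n to 2n were 0.45, -0.30 and -0.42, with the same signs.

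Neat1 had log2 ratios of 4n to 2n of 0.52 (0.00 to 1.06) at E16.5, 0.34 (0.09 to 0.60) at P1 and -0.16 (-0.36 to 0.03) at P5. Without the CMs with other markers, which held 38.9% of the Neat1 UMIs of E16.5-4n and 45.5% of those of P1-4n, the ratios were 0.21 (-0.41 to 0.81) at E16.5 and 0.20 (-0.11 to 0.50) at P1, and both intervals then held 0. At P1 the ratio was 0.020 (-0.49 to 0.53) with each CM thinned to 1000 UMIs, and it changed sign, to -0.054 (-0.56 to 0.45), in CMs with 2000 to 4000 UMIs. At P1 a difference of Neat1 between 4n- and 2n-CMs was thus not detectable under these settings. Thinning left intervals without 0 at E16.5, with 0.895 (0.026 to 1.80) from 31 and 19 UMIs, and at P5, with -0.48 (-0.93 to -0.026) from 67 and 112 UMIs.

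Malat1 was found in nearly all CMs at full depth, being absent from 31, 278 and 199 of the 2n-CMs and from 8, 78 and 170 of the 4n-CMs as age increased. The median number of Malat1 UMIs per CM was 26, 11 and 9 for 2n, and 38, 17 and 8 for 4n, again by increasing age. P1-4n CMs had more Malat1 UMIs than P1-2n CMs although their share of Malat1 was lower, since they also had more UMIs in all, a median of 3187 against 1831. The largest share of a single CM was 12.7%, in E16.5-4n, and the median share of a CM was 1.69% in that library and 0.179% in P5-4n.

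To compare cells at equal depth, each CM was thinned to 1000 UMIs, which left out shallower CMs: 700 in P1-2n, 163 in E16.5-2n, 20 to 23 in P5-2n and E16.5-4n, and none in the remaining libraries. The median CM then held 11, 6 and 2 Malat1 UMIs in 2n and 17, 5 and 2 in 4n for the successive ages. The range from the 25th to the 75th percentile was 7 to 18, 3 to 10 and 1 to 5 in 2n, and 10 to 25, 2 to 9 and 1 to 4 in 4n. The distributions thus moved as a whole with age. The share of thinned CMs with at least 1 Malat1 UMI was 99.1%, 95% and 81.6% in 2n and 99.7%, 93.9% and 76.4% in 4n, with P5 intervals of 80.5% to 82.8% and 75% to 77.8%. No cell type that lacks Malat1 was at hand to measure its free RNA.

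Malat1 varied between CMs by more than counting gives. The variance of its thinned UMIs over CMs was 6.67, 5.62 and 4.39 times the mean in 2n and 8.42, 5.01 and 4.14 times in 4n by age, where equal shares in all cells would give about 1. Among the 10 genes with most UMIs, the quotient stayed below that of Malat1 at E16.5 and P1, with 1.28 for Myl3 as the lowest and 2.62 for Actc1 as the highest in E16.5-2n. At P5 mt-Co3 (5.96 and 5.98), mt-Co1 (5.34 and 5.34) and mt-Atp6 (4.53 and 4.49) were above Malat1. Their means were 31.3 to 45.7 thinned UMIs against 3.40 and 2.70 for Malat1, and the coefficient of variation was higher for Malat1 (1.14 and 1.24) than for these 3 genes (0.362 to 0.413). At P5 the tenth of CMs with most Malat1 held 35.7% (2n) and 38.6% (4n) of its thinned UMIs, against 25.2% and 24.3% at E16.5. Whereas variance over mean was lower at P5 than at E16.5, the coefficient of variation was higher, since it was 0.711 (2n) and 0.659 (4n) at E16.5. Both measures depend on the mean, which was 13.2 (2n) and 19.4 (4n) thinned UMIs at E16.5. The part of counting at the lower P5 means was not separated.

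**Figure D3:**
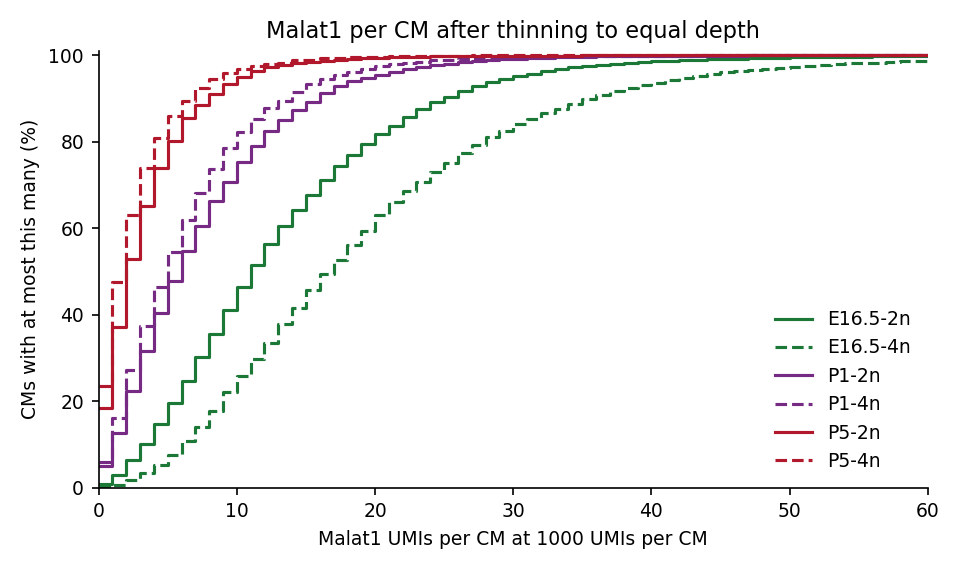
Percentage of CMs (vertical axis) with at most the given number of Malat1 UMIs (horizontal axis) after each CM was thinned to 1000 UMIs, with 1 line per library, solid for 2n and dashed for 4n. The lines of E16.5 lie farthest right, with medians of 11 (2n) and 17 (4n) UMIs, and those of P5 farthest left, with medians of 2.

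Within each library the level of Malat1 moved with the mitochondrial share of a CM. In the 25% of CMs with the lowest mitochondrial share it was at 16017, 9302 and 4865 CPM in 2n and 24682, 8323 and 3764 CPM in 4n by age. In the 25% with the highest share it was at 11922, 6521 and 2239 CPM in 2n and 15211, 5464 and 1828 CPM in 4n. The log2 ratio of the highest to the lowest share ran from -0.43 in E16.5-2n to -1.12 in P5-2n and was below 0 in all 6 libraries. The mitochondrial UMIs are part of the total, so that a larger mitochondrial share lowers the CPM of all other genes, and this was not separated here. At both ends of the mitochondrial share the E16.5 libraries had more Malat1 than the P1 libraries, and these more than the P5 libraries.

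CMs with many UMIs had more Malat1 per UMI than CMs with few. Comparing the 25% of CMs with most UMIs with the 25% with fewest, the log2 ratio of Malat1 CPM was 0.46, 0.97 and 0.38 in 2n and 0.095, 0.79 and 0.35 in 4n by age. In P1-2n the levels were 9456 CPM in the deepest and 4825 CPM in the shallowest CMs. When only CMs with 2000 to 4000 UMIs were compared, the log2 ratio of P1-4n to P1-2n was -0.59 in place of -0.18, and that of P5-2n to P1-2n -1.49 in place of -1.18.

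CMs with at least 5 UMIs of Myh6 and Myh7 were split by the share of Myh7, the fetal myosin heavy chain, at the limits of the lowest and the highest 25%, with ties kept, so that the ends differed in size. In P1-2n Malat1 was at 7140 CPM in the CMs with most Myh7 and 9910 CPM in those with least (log2 -0.47), and in P1-4n at 6164 and 7826 CPM (log2 -0.34). In the other 4 libraries the log2 ratio lay between 0.0085 and 0.053. CMs with most Myh7 were also shallower, and most so at P1. Their median was 1848.5 against 2563 UMIs in P1-2n and 2777 against 3945.5 in P1-4n, but 4545 against 4634 in P5-4n. The part of depth in these ratios was not tested.

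CMs with at least 5 UMIs of fibroblast, endothelial, immune, mural or epicardial markers had more Malat1 than other CMs in each library, by log2 ratios of 0.33, 0.32 and 0.58 in 2n and 0.25, 0.34 and 0.73 in 4n by age. Their levels were 17211, 10007 and 5145 CPM in 2n and 22309, 8214 and 4278 CPM in 4n. These CMs were also deeper, with a median of 4466 against 2911 UMIs in P1-4n. At a limit set by 5 marker UMIs many CMs lay near it, with 151 CMs at 4 and 120 at 5 marker UMIs in P1-4n. The 24 to 129 cells of each library that did not pass the CM filter had more Malat1 than the CMs of their library in 5 of 6 libraries, with 7252 and 7926 CPM at P5, and less in P1-2n, with 7695 CPM (7230 to 8181) against 8069 CPM, where the intervals overlapped.

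**Figure D4:**
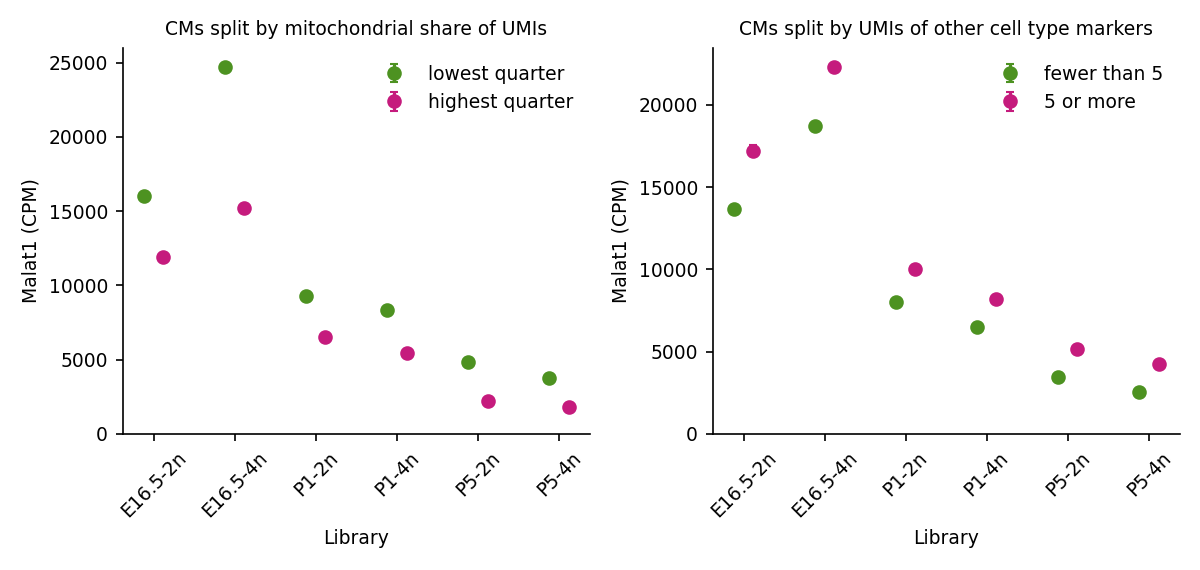
Malat1 in CPM (vertical axis, from 0) in each library, for the 25% of CMs with the lowest and the 25% with the highest mitochondrial share of UMIs (left) and for CMs with fewer than 5 and with at least 5 UMIs of markers of other cell types (right). Bars are 95% counting intervals, mostly smaller than the points, and in every library Malat1 is higher at the lowest mitochondrial share and in CMs with other markers.

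With rising age, Neat1 was found in 54, 204 and 388 of the 2n-CMs (0.948%, 2.78% and 8.79%) and in 67, 296 and 359 of the 4n-CMs (1.37%, 6.24% and 9.82%), with at most 6 UMIs in a CM. Depth enters these shares, since 4n-CMs of P1 and P5 had more UMIs. After thinning to 1000 UMIs they were 0.343%, 1.20% and 2.46% in 2n and 0.638%, 1.20% and 1.75% in 4n. The order of the ages stayed, while 2n and 4n had the same share at P1. Thinned levels were so low that few CMs had more than 1 UMI, so that the spread of Neat1 between single CMs could not be measured. Between groups of CMs, those with at least 5 UMIs of markers of other cell types had more Neat1 than the other CMs of their library in E16.5-4n (log2 1.25, 0.51 to 1.96), P1-2n (1.08, 0.21 to 1.83) and P1-4n (0.49, 0.16 to 0.81), while the intervals of the other 3 libraries held 0.

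CMs with a Neat1 UMI had a larger share of Malat1 than CMs without. By age, the median share of Malat1 was 1.32% against 1.12%, 0.802% against 0.555% and 0.337% against 0.230% in 2n. In 4n it was 2.54% against 1.68%, 0.664% against 0.489% and 0.221% against 0.172%. CMs with Neat1 were higher in all 6 libraries. They were also deeper, with a median of 5393 against 4590 UMIs in P5-4n and 5423 against 3095 in P1-4n, and the part of depth in the result was not tested. At equal depth the Pearson correlation of the UMIs of Malat1 and Neat1 over CMs was 0.00012 to 0.042 in the 6 libraries, which is too weak to read.

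CMs were also split by the UMIs they had, after thinning, of the genes that mark G2/M, the phase between DNA replication and the end of mitosis. In P5-4n, Neat1 was at 8.32 CPM (4.66 to 13.7, from 15 UMIs) in 1802 CMs with at least 3 such UMIs. It was at 29.2 CPM (20.7 to 39.9, 39 UMIs) in 1337 CMs with 1 or 2 and at 25.2 CPM (13.4 to 43.2, 13 UMIs) in 515 CMs with none. The first of these intervals lay apart from the second. In the other 5 libraries the intervals of the 3 classes overlapped, and P5-2n had 26.4, 25.2 and 25.2 CPM in CMs with none, with 1 or 2 and with at least 3. Malat1 had a median of 2 UMIs in each of the 3 classes of P5-4n and 2706 CPM in the class with most G2/M UMIs, against 2722 and 2590 CPM. In the 2n libraries Malat1 had a lower CPM in the class with most G2/M UMIs, with counting intervals apart from both other classes. In 2n this class held 2324 of 5536 thinned CMs at E16.5, 781 of 6640 at P1 and 1071 of 4393 at P5. These CMs had been sorted as 2n, and the class is a split by UMIs, not a call of cells in G2/M. The Malat1 intervals here leave out its spread between CMs, which was larger than counting gives. In E16.5-2n Malat1 was at 12042 CPM in the class with most against 13939 (1 or 2) and 14277 CPM (none). It was at 7033 against 7552 and 7494 CPM in P1-2n, and at 2851 against 3624 and 3472 CPM in P5-2n. The median of thinned Malat1 UMIs per CM was 10 against 12 and 12 in E16.5-2n. It was the same in all classes of P1-2n, at 6, and of P5-2n, at 2. In E16.5-4n the class with most had 18996 CPM, with an interval apart from that of 20564 CPM (1 or 2). The interval of 19157 CPM (none) overlapped it. In P1-4n the values were 6171 against 6432 and 6304 CPM, with overlapping intervals. This split was chosen after other results of these data were known, and it was not tested.

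Because Malat1 took up to 1.95% of a library, it enters the CPM of all other genes. Leaving Malat1 and Neat1 out of the total raised the CPM of every other gene by 1.40%, 0.815% and 0.360% in the 2n libraries and by 1.99%, 0.720% and 0.283% in the 4n libraries, by age. Neat1 had almost no share in this, with at most 0.0025% of the UMIs of a library. The log2 ratio of other genes then moved by -0.024 for P5-4n against E16.5-4n and by less in the other comparisons. There 2340 of 9598 other genes were past 2-fold in either direction in place of 2249, and 111 genes changed side. Leaving out the 13 mitochondrial genes moved the same ratios by 0.16 in the opposite direction.

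In single cells the effect was spread widely. Scaling a CM by its UMIs without Malat1 raised its other values by a median of 1.14%, 0.565% and 0.238% in 2n and 1.72%, 0.501% and 0.179% in 4n by age, with 14.6% as the largest value, so that the median CM had a smaller raise than its library as a whole. The raise was over 2% in 18.8%, 4.55% and 0.476% of 2n-CMs and in 39.9%, 2.46% and 0.328% of 4n-CMs, so that the E16.5 libraries held most of the CMs concerned.

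Other long noncoding RNAs were followed as a list of 15, of which 8 symbols were matched in the count tables and 4 had at least 100 UMIs in each comparison. All 4 were at least 2-fold lower at P5 than at E16.5 in both DNA contents, beside 16.8% and 21.0% of all genes. H19, an imprinted RNA of fetal tissues, had the lowest ratio, with 647, 111 and 44.7 CPM in 2n-CMs and 1046, 354 and 49.8 CPM in 4n-CMs by age (log2 -3.85 and -4.39 from E16.5 to P5). Meg3, an imprinted maternally expressed RNA, had the highest ratio in 2n (log2 -1.96, 64.0 to 16.5 CPM), and Airn, an imprinted antisense RNA, in 4n (log2 -2.43, 27.2 to 5.05 CPM). The median of the 4 was -2.63 in 2n and -2.83 in 4n, beside -0.45 and -0.51 for all genes. Neat1 was the only one of the 5 RNAs H19, Meg3, Kcnq1ot1, Airn and Neat1 that was higher at P5. The 4 others, H19, Meg3, Kcnq1ot1 and Airn, are all imprinted, and the rest of the list was unmatched or had fewer UMIs. They thus do not stand for long noncoding RNAs in general.

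The proteins of the nuclear bodies in which these RNAs reside had lower mRNA levels at P5. All 14 paraspeckle genes had log2 ratios of P5 to E16.5 below 0, with 5 at least 2-fold lower in 2n and 4 in 4n, beside 16.8% and 21.0% of all genes. Their medians were -0.89 and -0.79, beside -0.45 and -0.51 for all genes, and 4 of the 14 lay above the median of all genes in each DNA content. Hnrnpa1, an RNA-binding protein, had the lowest ratios (-1.37 in 2n and -1.53 in 4n), and the highest were those of Smarca4, a chromatin remodelling ATPase (-0.37 in 2n), and Hnrnph3, an RNA-binding protein (-0.28 in 4n). The level of Neat1 thus went up while the mRNAs of the 14 proteins went the other way on this scale.

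All 12 nuclear speckle genes also had ratios below 0, with 6 at least 2-fold lower in 2n and 7 in 4n, against the same shares of 16.8% and 21.0% of all genes. Their medians were -0.997 and -1.07, and none in 2n and 2 in 4n lay above the medians of all genes. The lowest were Clk1, a kinase of splicing factors, in 2n (-1.76, 130 to 38.6 CPM) and Srrm2, a core speckle protein, in 4n (-2.02, 216 to 53.2 CPM). The highest were the splicing factors Srsf1 in 2n (-0.56) and Srsf2 in 4n (-0.45). Malat1 lay below each of the 12 in both DNA contents.

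**Figure D5:**
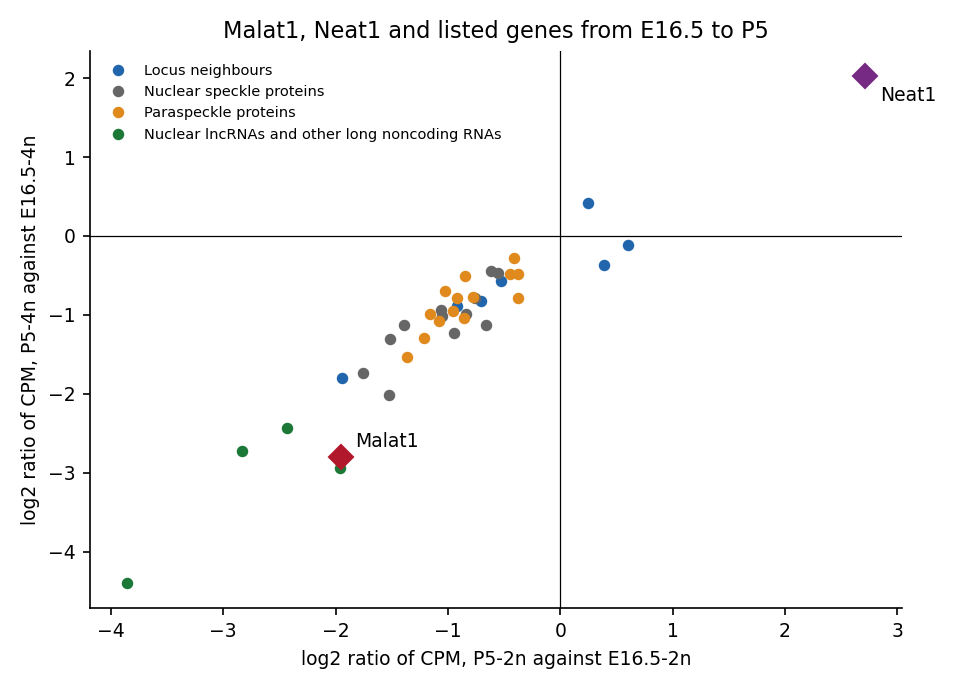
Log2 ratio of CPM from E16.5 to P5 in 2n-CMs (horizontal axis) and 4n-CMs (vertical axis) for Malat1, Neat1 (diamonds) and the listed genes with at least 100 UMIs in both comparisons (points, coloured by list). Neat1 lies in the upper right corner at 2.72 and 2.03, while all points of the paraspeckle, nuclear speckle and long noncoding RNA lists lie below 0 on both axes.

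The genes beside Malat1 and Neat1 on chromosome 19 had ratios on both sides of 0 from E16.5 to P5. Of 12 neighbours, 7 in 2n and 8 in 4n had at least 100 UMIs. Below 0 were 4 of the 7 in 2n and 7 of the 8 in 4n, where the median of all genes was -0.45 and -0.51. Frmd8, the next gene beyond Neat1 (chr19:5849702-5875274, minus strand), had the lowest ratios, -1.94 (-2.39 to -1.51) in 2n and -1.80 (-2.21 to -1.40) in 4n, with 12.7, 5.11 and 3.29 CPM in 2n and 14.0, 4.73 and 4.02 CPM in 4n by age. Neat1 was 6.57-fold (2n) and 4.07-fold (4n) higher over the same span. The highest ratios were those of Map3k11, a kinase, in 2n (0.60, 0.06 to 1.17) and of Ehbp1l1 in 4n (0.41, 0.31 to 0.52).

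Over the 6 libraries, the log2 CPM of Malat1 was most like that of Prpf6, Rest, Cbfa2t2, Cr1l and Zfpm2 among 6794 genes with at least 100 UMIs in every library (Pearson r of 0.995 to 0.997, over 6 points). Rest, a transcriptional repressor of neuronal genes, was at 32.1, 23.8 and 16.8 CPM in 2n and 35.3, 23.3 and 14.0 CPM in 4n by age, and Prpf6, a splicing factor, at 14.2, 12.0 and 9.60 CPM in 2n and 14.8, 11.5 and 8.91 CPM in 4n. These genes shared the order of ages but had smaller differences than Malat1. Neat1 was most like Dnajc19, Pde3a, Map7d1, Nfic and D5Ertd579e (r of 0.991 to 0.996), of which Pde3a, a phosphodiesterase, was at 21.2, 36.7 and 56.0 CPM in 2n and 24.9, 43.6 and 56.0 CPM in 4n. Malat1 and Neat1 had a Pearson r of -0.91 with each other. With 6 libraries of 3 ages, these values describe an order of ages and carry no p.

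Over CMs within a library, Malat1 was most like Son, a nuclear speckle protein, followed by Nexn, Ttn, Trdn and Sparc, with a mean Pearson r of 0.127 to 0.150 over the 6 libraries among 1982 genes. These correlations are weak. Farther from 0 were the lowest mean values of r, -0.261 for mt-Co1, -0.212 for mt-Co3 and -0.200 for mt-Co2. The points share the depth of the cell and the total by which they were scaled. For Neat1 the highest mean was 0.060, with Malat1, and then 0.026 to 0.030 for mt-Nd4l, Fabp3, Aprt and Ankrd1, which is too weak to read in counts as sparse as these.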

How the data were processed

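Sorted CMs of mouse left ventricle were measured by 10x Genomics 3′ scRNA-seq (v2 chemistry), with 1 library for each of the 6 conditions, grouped by the titles in the labels. An age tag of E16.5-4n reads embryonic day 16.6 where its title reads 16.5, and the title was used. The deposited values are raw UMI counts for each gene in each called cell, made by the authors from reads aligned to GRCm38 (Cell Ranger and STAR), counted by strand over exons and introns, and not normalized. The submitters' processing notes also name Seurat 2.3.0. A table with the authors' own G2/M comparison and a list of gene symbols were not used here.

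UMIs were summed over CMs and divided by all UMIs of the CMs (CPM). Ratios are on the log2 scale, without a pseudocount, with an exact 95% interval that treats the UMIs of both libraries as a binomial split, and shares have exact Clopper-Pearson intervals. With 1 library per condition there is no replicate error, and intervals cover counting error only. Genes with at least 100 UMIs over both libraries were compared. Doublets were not removed and no doublet caller was run. Thinning drew 1000 UMIs per CM without replacement with a fixed seed.

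Malat1, Neat1, the gene lists, the 54 G2/M genes and the splits of CMs were chosen with earlier results of these data known. Named genes are both members, the genes of lowest and highest ratio from E16.5 to P5 in each list, the 5 genes most like each member over libraries and over CMs, and the 10 genes with most UMIs. Frmd8 is also named as the nearest listed neighbour of Neat1, and H19, Meg3, Kcnq1ot1 and Airn as all the listed RNAs with at least 100 UMIs. The level of 1 other listed neighbour and the median of the neighbours are not reported here. Positions and transcript sequences are from GENCODE vM21, whose build is that of the files. A RefSeq table of promoters held 1 of the 2 genes and was not used. Alternatives were other scalings, thinning and other filters on cells. Scripts ran in Python 3.11.15 with numpy 2.4.6, scipy 1.17.1, pandas 2.3.3 and matplotlib 3.10.9, and were tested on simulated counts.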

Additional observations from a re-analysis of the deposited data

Results flagged for a closer look

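The ratio of Malat1 in 4n- to 2n-CMs went in opposite directions at different ages. On the log2 scale it was 0.50 at E16.5, -0.18 at P1 and -0.35 at P5. The ratio at E16.5 was above that at P1 by 0.68 (at least 0.66 by the ends of the counting intervals) and above that at P5 by 0.85 (at least 0.82). Each age had 1 library per DNA content, and the difference between ages was not tested.

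The ratio of Neat1 in 4n- to 2n-CMs was 0.52 at E16.5, 0.34 at P1 and -0.16 at P5 on the log2 scale. The intervals overlapped between E16.5 and both later ages. That of P1 lay above that of P5, but both overlapped in CMs with 2000 to 4000 UMIs, with -0.054 (-0.56 to 0.45) at P1 and -0.071 (-0.46 to 0.31) at P5. The difference was not tested.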

How the results depend on the processing

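The 7 log2 ratios of Malat1 kept their sign under all 10 alternatives run, 2 of which (mitochondrial genes left out, and CMs with 2000 to 4000 UMIs) were chosen after seeing the data. They left the counting interval in 45 of 70 cases. In the order 4n to 2n at E16.5, P1 and P5, then P1 to E16.5 in 2n and 4n, then P5 to P1 in 2n and 4n, scaling by the median of ratios gave 0.39, -0.31, -0.39, -0.43, -1.12, -1.07 and -1.15, and leaving the 50 most abundant genes out of the total gave 0.46, -0.20, -0.37, -0.54, -1.21, -1.13 and -1.31. In the same order without the ratios that stayed inside, means over cells gave 0.57 at E16.5, -0.87 and -1.61 from E16.5 to P1, and -1.07 and -1.23 from P1 to P5. Thinning to 1000 UMIs gave 0.55 and -0.24 at E16.5 and P1, then -0.82, -1.61, -1.14 and -1.23. Leaving out CMs with markers of other cell types gave 0.45, -0.30 and -0.42, then -1.53 for P1-4n to E16.5-4n, -1.22 and -1.33. Leaving out the 5% of CMs with most UMIs gave 0.53, -0.80 and -1.51. CMs with 2000 to 4000 UMIs gave 0.49, -0.59 and -0.45, then -0.67, -1.75 and, for P5-2n to P1-2n, -1.49. Leaving out mitochondrial genes gave -0.64, -1.31, -1.15 and -1.33 for the age ratios, and leaving Malat1 and Neat1 out of the total gave -1.47 for P1-4n to E16.5-4n. Keeping all cells moved none of them past its interval.

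For Neat1, 64 of 70 cases stayed inside the interval, which is wide. Thinning gave 0.020 for 4n to 2n at P1, -0.48 at P5 and 0.94 for P1-4n to E16.5-4n. CMs with 2000 to 4000 UMIs gave -0.054 for 4n to 2n at P1, a reversed sign, 0.77 for P1-4n to E16.5-4n and 1.15 for P5-4n to P1-4n. The ratio of P5-2n to P1-2n, 0.96, was past 2-fold under 6 of the 10 alternatives: median of ratios (1.06), means over cells (1.05), thinning (1.08), a total without the top 50 genes (1.00), the 5% of CMs with most UMIs left out (1.03) and CMs with 2000 to 4000 UMIs (1.16). The cause was not tested in any of these cases.

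With no filter on low counts other than 1 UMI in each library, more genes were past 2-fold. From E16.5 to P1 in 4n, 2459 of 15087 genes were at least 2-fold lower against 1159 of 9958, and for 4n to 2n at E16.5, 360 of 14787 were against 2 of 9625. All 14 counts over the 7 comparisons were more than 1.5 times larger. No paired analysis was possible because each condition had 1 library and the labels carry no replicate numbers. For the same reason no replicate could be left out, and the spread between animals, sorts and library preparations is unknown. Depth limits Neat1, with 56 to 451 UMIs per library, far more than Malat1.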
